A study of Mus musculus with 76 samples.

Results

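Sox genes encode transcription factors that bind DNA through an HMG box. The members described here were the 7 listed genes of the SoxB and SoxC subfamilies among 56923 gene IDs counted. They comprised the SoxB1 genes Sox1, Sox2 and Sox3, the SoxB2 gene Sox21, and the SoxC genes Sox4, Sox11 and Sox12. They were chosen by family membership, with no measured value in the rule but with earlier results of these data known. The SoxB2 gene Sox14 was not among them. SoxB1 factors are activators that hold neural cells in the progenitor state, and SoxB2 factors counteract them and favour leaving that state. SoxC factors act later and activate genes of young neurons.

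Positions are from the annotation in mm39 and identifiers from the count files. Sox1 (ENSMUSG00000096014.2) lies at chr8:12445295-12450126 on the plus strand and Sox2 (ENSMUSG00000074637.8) at chr3:34704554-34706610, also on the plus strand. The others are on the minus strand. Sox3 (ENSMUSG00000045179.10) lies at chrX:59934972-59937036, Sox21 (ENSMUSG00000061517.9) at chr14:118470644-118474442, Sox4 (ENSMUSG00000076431.5) at chr13:29132902-29137696, Sox11 (ENSMUSG00000063632.7) at chr12:27384263-27392573 and Sox12 (ENSMUSG00000051817.9) at chr2:152235531-152239983. Each is annotated as a single exon, from 2057 bp for Sox2 to 8311 bp for Sox11. Annotated antisense exons cover 1233 bp of Sox2, 361 bp of Sox3, 768 bp of Sox21 and 907 bp of Sox4.

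The samples were diencephalon, the part of the forebrain that forms thalamus and hypothalamus, from mouse embryos at E11.5 and E17.5. Wild type embryos were compared with homozygous hs754-humanized embryos, in which the human form of the hs754 enhancer replaces its mouse counterpart. Humanized embryos belong to a single edited line on the C57BL/6J background, each sample pooled embryos of one litter, and no other allele or treatment is named. Every pool at E11.5 held more embryos than any at E17.5, so pool size and stage cannot be told apart. RNA-seq had 4 libraries in each of 4 groups. H3K4me3, H3K27me3 and H3K27ac ChIP-seq had, for each mark in the wild type, 2 peak lists at E11.5 and 3 at E17.5.

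RNA libraries held 16414369 to 24272569 counts on genes. Levels are given as CPM, counts scaled by each library's total after that total was adjusted with edgeR's TMM factor. In the E17.5 wild type replicate 1, 1496 counts of Sox1 gave 78.2 CPM, above the value its unadjusted total of 21599712 would give. The E17.5 wild type replicate 1 stood apart before any comparison. Of 20234 genes, 5253 differed more than 2-fold from its group's mean, against 10 to 312 in the other 15 libraries. Its deviations rose with the GC content of the transcript (Spearman rho 0.713 across genes, which are not independent replicates). Summed erythroid, endothelial, meningeal, microglial and telencephalic markers were also highest there within the group, at 1020, 374, 722, 70.6 and 98.3 CPM. So were the sums of diencephalic (1886 against 1539 to 1798 CPM), oligodendrocyte lineage (316 against 259 to 276 CPM) and pituitary markers (41.0 against 25.7 to 35.8 CPM). Summed astrocyte markers were lowest, at 322 CPM against 516 to 589 CPM. Their part in the results was not tested. The members' fold changes and the counts of the gene lists are given with and without this library. The diencephalon label was checked with 12 regional markers, which summed to 1098 to 1946 CPM over all libraries. Tcf7l2, a thalamic factor among them, made up most of that sum in every library, so the check rests largely on this gene. It averaged 1043 CPM at E11.5 and 1205 CPM at E17.5 in the wild type. No other tissue was profiled for comparison.

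All 4 listed SoxB genes were lower at E17.5 than at E11.5 in both genotypes, whereas the SoxC genes differed among themselves. In the wild type, edgeR's quasi-likelihood test called 5 of the 7 members lower and none higher at an adjusted p under 0.05, with Benjamini-Hochberg adjustment over 18583 genes. Of all genes tested, 26.7% were called lower and 29% higher. The groups of 4 did not overlap for those 5 members, against 50.3% of all genes. Without E17.5 replicate 1, all 7 members were called lower. In bulk tissue, fewer cells of a type and less RNA per cell cannot be told apart.

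**Figure D1:**
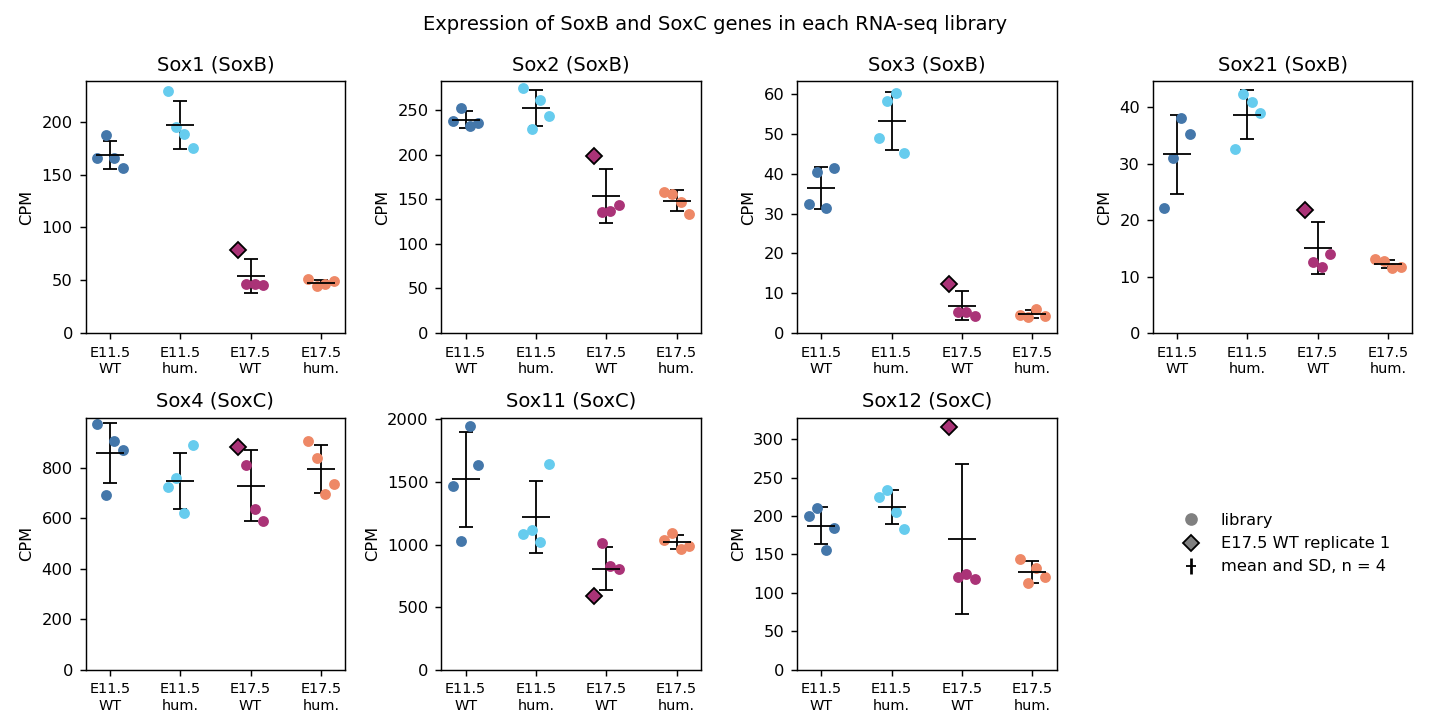
Expression of each gene in CPM (linear axis from 0) in every RNA library, by stage and genotype, with the mean and SD of 4 libraries. WT is wild type and hum. is humanized, and the diamond is the E17.5 wild type replicate 1. Sox3 lay between 31.3 and 60.2 CPM at E11.5 and between 4.07 and 12.2 CPM at E17.5, while Sox4 overlapped between the stages.

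Sox1 marks neuroepithelial progenitors. Its wild type libraries held 166, 188, 166 and 156 CPM at E11.5 and 78.2, 46.7, 46.7 and 45.4 CPM at E17.5. Every E11.5 library was higher than every E17.5 library, and E17.5 replicate 1 was the highest of its stage. The mean fell from 169 ± 13.4 to 54.2 ± 15.99 CPM (SD, n = 4), a log2 fold change of -1.65 (SE 0.213, edgeR adjusted p = 8.78e-05), or -1.89 without that replicate. In the humanized libraries Sox1 held 229, 195, 188 and 175 CPM at E11.5 and 50.9, 44.1, 46.8 and 49.1 CPM at E17.5. These groups did not overlap either, and the log2 fold change was -2.06 (SE 0.112, edgeR adjusted p = 1.14e-08).

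Sox2, the SoxB1 factor most widely used to mark neural stem cells, declined less. Wild type libraries held 238, 253, 232 and 236 CPM at E11.5 and 199, 136, 136 and 144 CPM at E17.5. The lowest E11.5 library exceeded the highest E17.5 library. The log2 fold change was -0.65 (SE 0.174, edgeR adjusted p = 0.00885), and -0.81 without E17.5 replicate 1. Humanized libraries held 275, 229, 262 and 243 CPM at E11.5 and 159, 156, 146 and 133 CPM at E17.5, again without overlap. The log2 fold change there was -0.77 (SE 0.108, edgeR adjusted p = 3.34e-05).

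Sox3, the X-linked SoxB1 gene known for its role in the hypothalamus and pituitary, declined most among the members. Wild type libraries held 32.4, 40.4, 31.3 and 41.5 CPM at E11.5 and 12.2, 5.38, 5.37 and 4.30 CPM at E17.5. The stages stood apart even with E17.5 replicate 1 included. The log2 fold change was -2.43 (SE 0.323, edgeR adjusted p = 1.07e-04), and -2.88 without that replicate. Humanized libraries held 49.0, 58.3, 60.2 and 45.2 CPM at E11.5 and 4.64, 4.07, 6.07 and 4.205 CPM at E17.5. This was the widest separation of any member, with a log2 fold change of -3.49 (SE 0.159, edgeR adjusted p = 3.23e-09).

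Sox21, the SoxB2 member, followed the same direction from a lower level. Wild type libraries held 22.2, 30.98, 38.1 and 35.4 CPM at E11.5 and 21.8, 12.6, 11.7 and 13.99 CPM at E17.5. The lowest E11.5 library and E17.5 replicate 1 nearly met. The log2 fold change was -1.09 (SE 0.256, edgeR adjusted p = 0.00431), and -1.33 without that replicate. In humanized libraries Sox21 went from 32.6, 42.4, 40.9 and 38.98 CPM to 13.1, 12.7, 11.53 and 11.7 CPM, a log2 fold change of -1.67 (SE 0.127, edgeR adjusted p = 1.67e-07).

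Sox4, a SoxC gene of young neurons, overlapped between the stages in both genotypes. Wild type libraries held 971, 693, 905 and 869 CPM at E11.5 and 883, 811, 635 and 587 CPM at E17.5. The stages overlapped, with a log2 fold change of -0.25 (SE 0.192, edgeR adjusted p = 0.293). Without E17.5 replicate 1 the value was -0.36 and passed the threshold (edgeR adjusted p = 0.0406). Humanized libraries held 722, 759, 620 and 891 CPM at E11.5 and 905, 839, 697 and 735 CPM at E17.5, which also overlapped (log2 fold change 0.07, SE 0.141, edgeR adjusted p = 0.645). Adding offsets for transcript GC content, an alternative chosen after seeing the data, turned this into a call of higher at E17.5, with a log2 fold change of 0.50 (edgeR adjusted p = 0.0076).

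Sox11, the partner of Sox4 in neuronal differentiation, was called lower at E17.5 in the wild type alone. Its libraries held 1464, 1033, 1946 and 1638 CPM at E11.5 and 590.4, 1011, 828 and 803 CPM at E17.5. The groups were separated by little, 1033 against 1011 CPM. The log2 fold change was -0.93 (SE 0.239, edgeR adjusted p = 0.00727), and -0.81 without E17.5 replicate 1, which was the lowest library for this gene. Humanized libraries held 1088, 1117, 1022 and 1646 CPM at E11.5 and 1033, 1093, 968 and 989 CPM at E17.5. These overlapped, and the log2 fold change of -0.27 (SE 0.159) did not pass the test (edgeR adjusted p = 0.137). Without a filter on low counts it was -0.33 and passed (edgeR adjusted p = 0.0431).

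Sox12, the third SoxC gene, depended most on the library that stood apart. Wild type libraries held 200.3, 209.9, 155 and 184 CPM at E11.5 and 316, 121, 124 and 119 CPM at E17.5. E17.5 replicate 1 lay above every E11.5 library, and the other 3 lay below them all. With it, the log2 fold change was -0.15 (SE 0.317, edgeR adjusted p = 0.709), and without it -0.65 (edgeR adjusted p = 5.52e-04). In humanized libraries Sox12 went from 225, 234, 205 and 184 CPM to 144, 113, 132 and 120.2 CPM. These did not overlap, and the log2 fold change was -0.75 (SE 0.113, edgeR adjusted p = 6.63e-05).

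In the humanized libraries 5 of 7 members were called lower and none higher, and the same 5 members had groups that did not overlap. Among 18781 genes tested, 39.5% were called lower, 38.2% were called higher and 71.8% did not overlap between the stages. The share of members called lower was above that of all genes in both genotypes, and the SoxB members were 4 of those 5 in each. Members were chosen with earlier results of these data known, so this excess is a description and not a test.

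**Figure D2:**
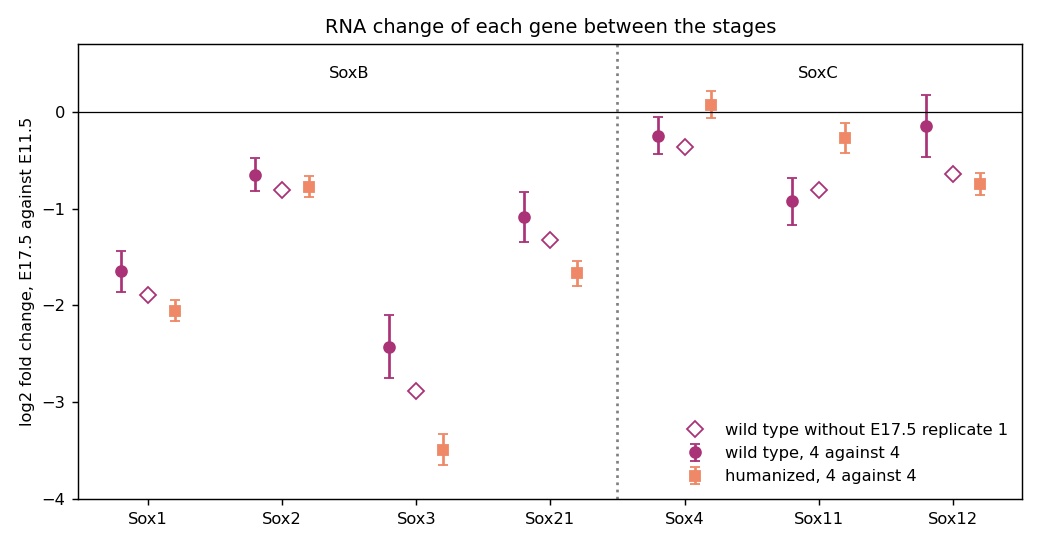
Log2 fold change of E17.5 against E11.5 for each gene, from edgeR, with bars for the SE where 4 libraries were compared with 4. Open diamonds, drawn without an error bar, leave out the E17.5 wild type replicate 1. All 4 SoxB genes lie below 0 in each fit, from -0.65 for Sox2 to -3.49 for Sox3, and the SoxC genes lie between -0.93 and 0.07.

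Levels between genes were compared per length, as CPM per kb of exon. At E11.5 in the wild type the order was Sox11 (183 ± 45.9), Sox4 (179 ± 24.8), Sox2 (116 ± 4.43), Sox12 (42.1 ± 5.38), Sox1 (34.97 ± 2.77), Sox3 (17.6 ± 2.56) and Sox21 (8.33 ± 1.83; all SD, n = 4). The ranges of Sox11 and Sox4 overlapped, as did those of Sox12 and Sox1, and the other neighbours did not. At E17.5 Sox4 came first at 152 ± 29.4 CPM per kb, above Sox11 at 97.2 ± 20.7 with no overlap. Sox2 (74.8 ± 14.7) overlapped both Sox11 above it and Sox12 (38.2 ± 21.8) below it. Sox1 followed at 11.2 ± 3.31, and Sox21 (3.96 ± 1.21) and Sox3 (3.30 ± 1.76) overlapped at the end of the order. These overlaps came only from E17.5 replicate 1, with 71.0 CPM per kb of Sox11, 96.7 of Sox2, 70.9 of Sox12 and 5.92 of Sox3. Without that replicate no neighbours in the order overlapped. In the humanized libraries Sox4 had the highest and Sox11 the next highest mean at each stage, although at E11.5 the ranges of Sox4 and Sox11 overlapped, as did those of Sox11 and Sox2. Sox3 there moved from sixth to last place, from 25.7 to 2.30 CPM per kb. In the wild type Sox3 went from the 86.8th to the 46.7th percentile of protein-coding genes by level per length, while Sox4 stayed at 99.3.

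Summed per length, the SoxC genes exceeded the SoxB genes in every library. In the wild type the SoxC to SoxB ratio of CPM per kb went from 2.29 ± 0.433 at E11.5 to 3.15 ± 0.547 at E17.5 (SD, n = 4), and 3.32 ± 0.514 without E17.5 replicate 1 (n = 3). It was 1.77 ± 0.371 and 3.62 ± 0.176 in the humanized libraries. Wild type ratios ranged from 1.67 to 2.66 and from 2.62 to 3.89, so the stages overlapped, but only through E17.5 replicate 1 (the lowest E17.5 ratio was 2.89 without it). Humanized ratios ranged from 1.45 to 2.28 and from 3.36 to 3.74, so they did not. Within SoxB1, Sox2 made up 68.9% ± 0.905 of the CPM per kb at E11.5 and 84.0% ± 1.89 at E17.5 in the wild type, and 64.8% ± 2.15 and 85.5% ± 1.32 in the humanized libraries. The Sox3 share went from 10.4% ± 1.27 to 3.54% ± 1.02 and from 13.7% ± 1.96 to 2.73% ± 0.543.

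**Figure D3:**
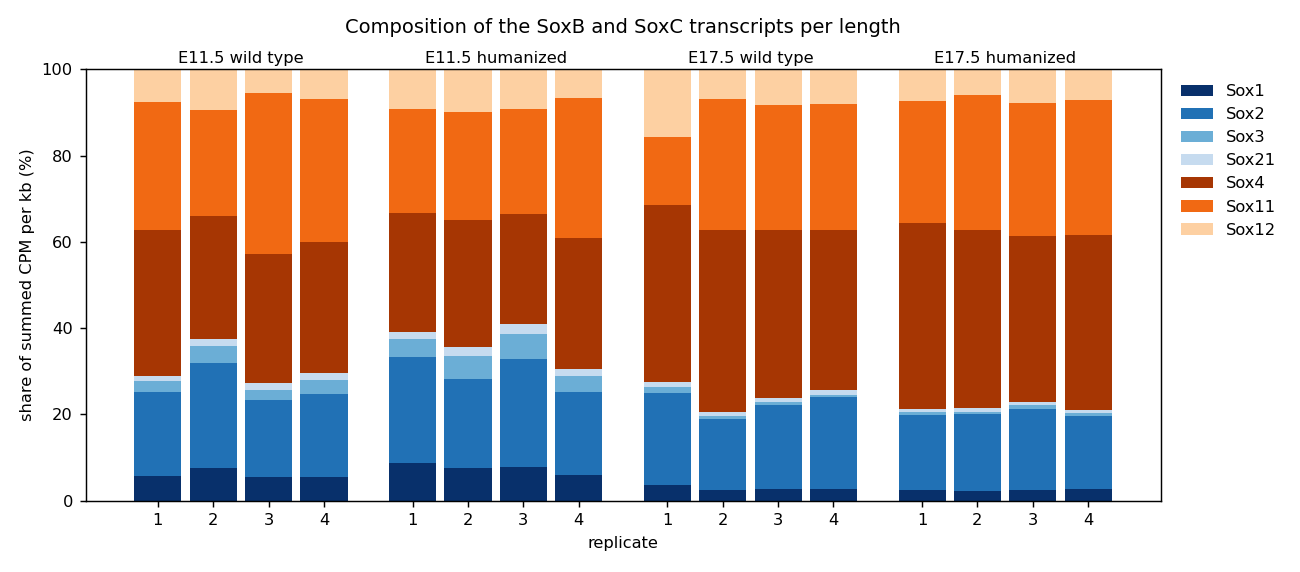
Share of each gene in the summed CPM per kb of the 7 genes, in percent, for each RNA library (1 bar per replicate). SoxB genes are blue and SoxC genes are orange. The SoxB share averaged 30.8% at E11.5 and 24.4% at E17.5 in the wild type, and 36.5% and 21.7% in the humanized libraries.

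The second question was whether the humanized enhancer went with a different level of these genes at either stage. At E11.5 no member was called among 7, and 0% of 17816 genes were called by edgeR (1058 had an unadjusted p under 0.05, and DESeq2 called 2). Sox3 was the only member whose genotypes did not overlap, at 31.3 to 41.5 CPM in the wild type and 45.2 to 60.2 CPM in the humanized libraries, against 2.5% of all genes. Its log2 fold change was 0.52 (SE 0.134) with an edgeR adjusted p of 0.578. The other members lay between -0.34 for Sox11 and 0.27 for Sox21. At E17.5 no member and 0% of 18763 genes were called (207 at an unadjusted p under 0.05, 1 by DESeq2). No member's genotypes were separated there, against 1.21% of all genes. Differences ranged from -0.53 for Sox3 (SE 0.336) to 0.33 for Sox11 (SE 0.188). Without E17.5 wild type replicate 1 the Sox3 value was -0.08 and the Sox11 value 0.21. The interaction of genotype and stage called 0% of 20234 genes (1610 at an unadjusted p under 0.05). It was -1.06 for Sox3 (SE 0.365, edgeR adjusted p = 0.462) and 0.66 for Sox11 (SE 0.281, edgeR adjusted p = 0.462). Without that replicate the 2 values were -0.62 and 0.53, and whether the stage change of any member differed between genotypes was not resolved by these tests.

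Genes that work with the members, or share their domain, were taken from lists chosen with earlier results of these data known. Of 16 SoxB partner and progenitor factors, 15 were tested in the wild type, of which 11 were lower and 4 higher at E17.5 (median log2 fold change -2.08, against -0.01 over all genes tested). Nes, an intermediate filament of progenitors, fell from 1614 to 95.2 CPM (log2 fold change -4.10, SE 0.345). Pou3f4, a POU factor of the class that pairs with Sox2, fell from 144 to 14.8 CPM (log2 fold change -3.29, SE 0.159). Slc1a3, a glial glutamate transporter also found in radial glia, rose from 50.7 to 249 CPM (log2 fold change 2.28, SE 0.157). Six6, a hypothalamic and eye-field factor, averaged 0.0259 CPM at E11.5 and 11.7 CPM at E17.5. The same counts, 11 lower and 4 higher, were found in the humanized libraries and in the wild type without E17.5 replicate 1 (median -2.02).

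Of 18 neuronal genes linked to SoxC, 12 were higher and 4 lower at E17.5 in each genotype, with medians of 1.33 in the wild type and 1.44 in the humanized libraries. Without E17.5 wild type replicate 1, 12 were higher and 5 lower (median 1.17). The synaptic vesicle protein Syt1 rose from 53.0 to 570 CPM (log2 fold change 3.42, SE 0.244), and Snap25, a SNARE protein of synapses, from 23.5 to 199 CPM (log2 fold change 3.07, SE 0.407). The proneural factors Neurog1 and Neurog2, which start neurogenesis, went the other way. Neurog1 fell from 33.7 to 0.450 CPM (log2 fold change -6.23, SE 0.428) and Neurog2 from 228 to 13.4 CPM (log2 fold change -4.10, SE 0.245). All changes named in this and the preceding paragraph passed edgeR's test at an adjusted p under 0.05, with and without that replicate.

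The rest of the Sox family was mixed. Of 12 other Sox genes, 11 were tested in the wild type, with 3 higher, 4 lower and 4 not called (3, 6 and 2 without E17.5 replicate 1). The highest were Sox10, the oligodendrocyte and neural crest factor (log2 fold change 4.30, SE 0.748), and Sox8, its SoxE relative (3.47, SE 0.369). The lowest were Sox13, a SoxD gene (-2.14, SE 0.244), and Sox9, a factor of radial glia (-1.40, SE 0.282). Sox14, the SoxB2 gene outside the members, overlapped between the stages in both genotypes, unlike the 4 SoxB members. It held 6.842 to 12.56 CPM at E11.5 and 5.328 to 11.55 CPM at E17.5 in the wild type. In the humanized libraries it held 4.243 to 15.02 CPM, then 4.975 to 8.728 CPM. Without E17.5 wild type replicate 1, which held 11.55 CPM, Sox14 was called lower (-0.7394, edgeR adjusted p = 0.006175). Among 11 HMG-box factors outside the family, 7 were lower, 1 was higher and 3 were not called (8, 1 and 2 without that replicate). Hmgb2, a chromatin protein of dividing cells, was lowest (-4.28, SE 0.253), followed by Tcf7l1, a Wnt pathway repressor (-2.27, SE 0.366). Tox was the one that rose (0.84, SE 0.181), and Tcf7l2 did not pass in the wild type (0.20, SE 0.185, edgeR adjusted p = 0.386) but did in the humanized libraries (0.50, SE 0.139, edgeR adjusted p = 0.00545).

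Markers of other cell types moved between the stages as well. In the wild type 4 of 6 astrocyte, 6 of 7 oligodendrocyte lineage and 2 of 4 choroid plexus genes were higher at E17.5 and none was lower. Of 6 meningeal genes 5 were lower and 1 higher, of 5 endothelial genes 1 was higher, and of 5 microglial genes 1 was higher and 1 lower. Of 6 erythroid genes 1 was higher and 1 lower, of 5 telencephalic genes 3 were higher and 2 lower, and of 12 diencephalic genes 3 were higher and 4 lower. Of 2 pituitary genes tested 1 was higher and 1 lower, and of 3 midbrain and hindbrain genes tested none was called. Without E17.5 replicate 1, 5 astrocyte genes were higher, the diencephalic list had 4 higher, and the genes called lower numbered 3 erythroid, 2 endothelial, 2 microglial, 1 oligodendrocyte lineage and 1 choroid plexus. The midbrain and hindbrain list then had 1 higher and 1 lower, and the other counts were the same. The summed astrocyte level ran from 285 to 416 CPM at E11.5 and from 322 to 589 CPM at E17.5, and the summed meningeal level from 1392 to 1898 and from 426 to 722 CPM. Their part in the changes of the Sox genes was not tested.

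Several members share their locus with noncoding RNAs. Sox1 lies wholly in an intron of Sox1ot, on the same strand. Sox1ot rose from 11.3 to 51.6 CPM in the wild type (log2 fold change 2.18, SE 0.173) while Sox1 fell. Sox2ot, the host transcript of Sox2, averaged 37.7 and 55.6 CPM and did not pass the test in the wild type (0.54, SE 0.352, edgeR adjusted p = 0.212). It passed without E17.5 replicate 1, at 67.3 CPM (0.81, SE 0.166, edgeR adjusted p = 7.29e-04). It rose in the humanized libraries from 30.0 to 67.4 CPM (1.15, SE 0.159, edgeR adjusted p = 3.00e-05). In antisense orientation, Sox21os1 fell with Sox21 (-1.99, SE 0.284) and Gm14662 with Sox3 (-1.46, SE 0.396), and A330102I10Rik, opposite Sox4, rose from 1.21 to 11.8 CPM (3.27, SE 0.404). Nrsn2, the protein-coding neighbour of Sox12, rose from 5.80 to 40.3 CPM (2.79, SE 0.326), or to 32.3 CPM without E17.5 replicate 1 (2.46, SE 0.215). Of the 2 remaining genes tested, Gm42692 near Sox2 was lower (-1.26, SE 0.290) and Gm56537 near Sox11 did not pass (-0.69, SE 0.286, edgeR adjusted p = 0.0617). The counts used do not separate strands, but in the strand-specific counts only 0.159% to 1.53% of a member's reads in a group lay on the other strand. For Sox21os1 that share was 31.7% to 46.5%, so that its value cannot be told apart from reads of Sox21.

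Likeness was measured as Pearson's r of log2 CPM over the 16 libraries among 14826 other protein-coding genes, which share the stage difference and the library that stood apart. The closest to Sox1 were Jpt2 and Fzd10 (both 0.997), to Sox2 Zfp503 (0.990) and Tcf7 (0.988), and to Sox3 Sox13 (0.995) and Tcf7l1 (0.995). For Sox21 they were Gja5 and Hyal1 (both 0.977), and for Sox12 Ehd1 (0.997) and Capzb (0.993). Sox11 was closest to Vezf1 (0.971) and Tgfbr1 (0.967), and Sox4 to Ctr9 (0.869) and Ccdc177 (0.843), the lowest closest values of the 7. Between members, Sox1 and Sox3 had an r of 0.988 and Sox11 and Sox12 one of -0.03. Within the groups these values were 0.748 and -0.679, and 0.089 and -0.698 without E17.5 wild type replicate 1 (15 libraries).

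Chromatin at the promoters separated the 4 SoxB members from the 3 SoxC members. H3K4me3 marks active or poised promoters, H3K27ac marks active promoters and enhancers, and H3K27me3 is the repressive mark of Polycomb. The authors report that their H3K27ac antibody lot also bound H2BK5ac, an acetylation of histone H2B, so the H3K27ac lists can include it. In bulk tissue, H3K27me3 and the active marks can come from different cells. A promoter was taken as the 1000 bp on each side of the annotated start, and a domain as the peaks there joined across gaps of up to 1000 bp. All 7 members had H3K4me3 and H3K27ac peaks in all 5 wild type lists, against 59.5% and 43.9% of 21757 protein-coding genes. H3K27me3 covered the promoters of Sox1, Sox2, Sox3 and Sox21 in all 5 lists, against 14.9% of genes, and none of the lists had a peak at Sox4, Sox11 or Sox12. The humanized lists gave the same split. H3K4me3 and H3K27me3 were both present in every E11.5 list at these 4 SoxB promoters (16.7% of genes) and in every E17.5 list (15.5% of genes). No member had a peak in every list of only one stage, against 1.13% of genes for H3K4me3, 4.06% for H3K27me3 and 8.08% for H3K27ac.

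Bases before the start are shown for 4 members, in mm39, because they set promoters that carried both marks (Sox2 and Sox3) beside promoters that carried H3K4me3 without H3K27me3 (Sox11 and Sox12). Each is the 250 bases upstream of the annotated start, 5′ to 3′ along the gene's strand, with CpG dinucleotides in capitals. They lie at chr3:34704304-34704553 (plus strand), chrX:59937037-59937286 (minus), chr12:27392574-27392823 (minus) and chr2:152239984-152240233 (minus).
Sox2: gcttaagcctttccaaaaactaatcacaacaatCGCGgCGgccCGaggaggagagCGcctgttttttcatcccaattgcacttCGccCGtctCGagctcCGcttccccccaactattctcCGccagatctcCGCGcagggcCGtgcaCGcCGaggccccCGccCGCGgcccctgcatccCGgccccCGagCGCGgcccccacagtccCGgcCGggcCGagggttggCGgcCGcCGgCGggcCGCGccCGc
Sox3: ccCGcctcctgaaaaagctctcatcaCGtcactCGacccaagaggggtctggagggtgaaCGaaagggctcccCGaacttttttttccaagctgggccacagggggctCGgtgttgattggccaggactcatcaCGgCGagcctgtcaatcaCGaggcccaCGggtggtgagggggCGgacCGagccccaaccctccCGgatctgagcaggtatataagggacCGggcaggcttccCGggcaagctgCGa
Sox11: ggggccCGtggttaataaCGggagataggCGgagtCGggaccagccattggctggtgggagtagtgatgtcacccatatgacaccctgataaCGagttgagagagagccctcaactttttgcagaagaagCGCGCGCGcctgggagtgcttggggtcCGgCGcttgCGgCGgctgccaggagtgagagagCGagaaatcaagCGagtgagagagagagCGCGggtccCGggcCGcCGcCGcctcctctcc
Sox12: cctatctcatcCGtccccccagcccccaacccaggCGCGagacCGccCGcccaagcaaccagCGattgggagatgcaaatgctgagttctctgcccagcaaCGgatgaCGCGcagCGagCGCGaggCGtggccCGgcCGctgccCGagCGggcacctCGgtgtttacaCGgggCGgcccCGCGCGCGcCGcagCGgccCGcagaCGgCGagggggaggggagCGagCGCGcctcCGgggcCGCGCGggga

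CpG-rich starts were common to the members of both subfamilies. The upstream stretches of Sox2, Sox3, Sox11 and Sox12 hold 32, 16, 21 and 36 CpGs, and those of Sox1, Sox21 and Sox4 hold 11, 17 and 13, against a median of 6 over 21749 promoters. Within 1000 bp of the start on each side, the members held 119 to 231 CpGs against a median of 59, with an observed to expected CpG ratio of 0.709 for Sox21 to 0.967 for Sox11 against 0.458. The SoxB promoters with H3K27me3 had ratios of 0.709 to 0.844 and the SoxC promoters without it 0.818 to 0.967, so the ranges overlapped. The Sox-type motif AACAATG, searched on both strands, was present within 1000 bp of the Sox2 and Sox12 starts, as in 21.9% of promoters, and AACAAAG at none of the members, against 36% of promoters. Neither occurred in the 250 upstream bases of any member, where 3.3% and 5.37% of promoters hold them.

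Sox2 had the broadest H3K4me3 domain of the members. It spanned 31.4 and 31.2 kb at E11.5 and 31.2, 28.7 and 28.98 kb at E17.5, and ranked between 3 and 5 among the 13196 to 13379 promoter domains of a list. In the first E11.5 list it ran from chr3:34692093-34723446, reaching 12461 bp before and 18892 bp past the start. The H3K27ac domain there had a similar span, 34.96 and 35.01 kb at E11.5 and 36.3, 36.1 and 35.9 kb at E17.5. H3K27me3 covered 35.7 and 24.6 kb at E11.5 and 37.5, 37.1 and 36.6 kb at E17.5. The second E11.5 list of H3K27me3 began 2297 bp before the start, and the other lists of the 3 marks 12402 to 14169 bp before it, so that 14 of the 15 lists covered much the same stretch around Sox2.

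**Figure D4:**
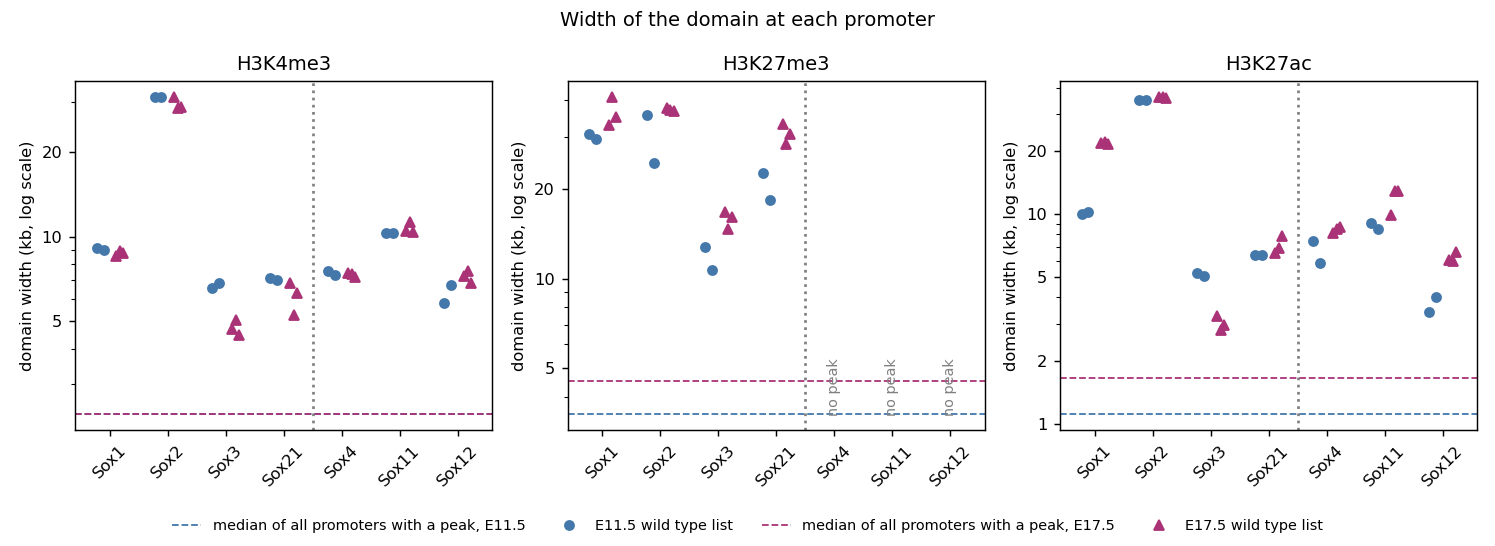
Width of the promoter domain of each gene in kb (log axis) for the 3 marks, with 1 point per wild type list. Dashed lines give the median width over all promoters with a peak, as the median of the lists of a stage. Sox2 has the broadest H3K4me3 and H3K27ac domains of the 7, and the SoxC genes have no H3K27me3 peak.

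The width of each domain was compared between the stages with limma on log2 width, over the genes with a domain in all 5 lists. For H3K4me3, 19.9% of 12941 genes were wider, 15.2% narrower and 63% did not overlap between stages. Sox3 was the only member called. Its domain spanned 6.59 and 6.86 kb at E11.5 and 4.71, 5.05 and 4.46 kb at E17.5, so every E17.5 list was narrower. The log2 difference was -0.51 (SE 0.0745, limma adjusted p = 0.00523). The Sox1 domain was 9.12 and 8.98 kb, then 8.52, 8.88 and 8.77 kb (95% interval of the log2 difference -0.19 to 0.09), and that of Sox21 7.12 and 7.03 kb, then 6.87, 5.26 and 6.33 kb (-0.51 to 0.09). Sox2 gave -0.24 to 0.08. The SoxC domains were 7.21 to 7.56 kb for Sox4, 10.3 to 11.3 kb for Sox11 and 5.80 to 7.55 kb for Sox12, with log2 differences of -0.02, 0.06 and 0.21, none of which passed. Lists did not overlap for 6 of 7 members: the 4 SoxB domains were narrower and those of Sox11 and Sox12 wider at E17.5.

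H3K27me3 domains were wider at E17.5 in all lists of all 4 SoxB genes. Among 3249 genes, 25% were called wider, 2.31% narrower and 71.4% did not overlap, and the median log2 difference was 0.46. Sox21 was called wider, from 22.65 and 18.4 kb to 33.2, 28.3 and 30.6 kb (log2 difference 0.58, SE 0.146, limma adjusted p = 0.0481). This call was lost when 1 list was left out, for 4 of the 5 lists, and after centring each list on its median width, when the difference was 0.11. Sox1 went from 30.7 and 29.5 kb to 32.8, 40.9 and 35.03 kb (0.26, SE 0.136), and Sox3 from 12.7 and 10.7 kb to 16.8, 14.7 and 16.1 kb (0.44, SE 0.134). These 2 did not pass, nor did Sox2 (0.32, SE 0.187), although Sox2 was called wider without E11.5 replicate 1 (0.59, limma adjusted p = 0.0388). All 3 turned negative after centring, at -0.21, -0.03 and -0.15 for Sox1, Sox3 and Sox2.

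For H3K27ac, 66.8% of 9542 genes were wider, 2.61% narrower and 86% did not overlap, with a median log2 difference of 0.61. Sox1 was wider, from 10.1 and 10.2 kb to 21.8, 22.0 and 21.7 kb (log2 difference 1.11, SE 0.0769, limma adjusted p = 4.64e-04). Its reach upstream of the start went from 1090 and 1169 bp to 12109, 12538 and 12442 bp, while its RNA fell. Sox3 was narrower, from 5.24 and 5.05 kb to 3.28, 2.81 and 2.94 kb (-0.78, SE 0.102, limma adjusted p = 0.00262). Sox12 was wider, from 3.39 and 4.04 kb to 6.06, 6.00 and 6.57 kb (0.75, SE 0.113, limma adjusted p = 0.00401). Sox4, from 7.41 and 5.86 kb to 8.10, 8.48 and 8.68 kb, and Sox11, from 9.07 and 8.46 kb to 9.90, 12.8 and 12.9 kb, had limma adjusted p values of 0.0545 and 0.0506. Sox4 was called without E11.5 replicate 1 (limma adjusted p = 0.0107) and Sox11 without E17.5 replicate 1 (limma adjusted p = 0.0176). Sox21 (0.15, SE 0.109) and Sox2 (0.05, SE 0.0764) did not pass. No member overlapped between the stages. In the humanized lists Sox3 (-1.30) and Sox12 (0.51) did not pass, with limma adjusted p values of 0.0694 and 0.0598. After centring on the list median, Sox1 was the only member called wider, Sox2 (-0.59), Sox21 (-0.49) and Sox3 were called narrower, Sox12 (0.11) was not called, and Sox4 and Sox11 turned to -0.28 and -0.21.

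Fold enrichment of the highest promoter peak over local background is given as a description, since the lists carry no depth. For no mark is the share of all promoters whose fold values did not overlap between the stages given here. For widths that share was 63% (H3K4me3), 71.4% (H3K27me3) and 86% (H3K27ac) of genes. Separate fold values therefore do not by themselves set a member apart from other promoters. H3K4me3 at Sox1 was 55.2- and 59.6-fold at E11.5 and 20.9-, 29.1- and 26.9-fold at E17.5. At Sox2 it was 72.7- and 65.6-fold, then 50.8-, 45.9- and 45.6-fold. Sox3 went from 43.8 and 42.7 to 28.3, 31.5 and 26.6, and Sox21 from 46.0 and 33.1 to 20.4, 25.9 and 19.4. All 4 SoxB promoters were thus lower in every wild type E17.5 list, while the median promoter went from 45.2 and 46.1 to 51.7, 54.8 and 50.6. The SoxC promoters overlapped between the stages. Sox4 had 71.8 and 78.0 then 71.3, 76.1 and 70.9, Sox11 79.3 and 50.1 then 66.3, 73.8 and 71.2, and Sox12 41.6 and 65.7 then 46.7, 67.4 and 70.7. In the humanized lists Sox1, Sox3 and Sox21 were also lower in every E17.5 list. Sox2 overlapped there (46.7 to 68.6, then 34.6 to 49.3), as did the SoxC promoters.

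H3K27me3 enrichment rose at 2 of the 4 SoxB promoters by this measure. At Sox2 it was 4.71- and 4.26-fold at E11.5 and 9.05-, 7.11- and 7.55-fold at E17.5, and at Sox3 3.75- and 3.29-fold, then 7.95-, 6.41- and 6.97-fold. The lists of the stages did not overlap for either gene, with no share of all promoters to compare. Sox1 (11.04 to 13.9, then 10.1 to 13.2) and Sox21 (10.5 to 12.2, then 11.3 to 12.6) overlapped, and the median promoter was 5.10 and 5.06, then 4.64, 4.45 and 4.49. The E11.5 peak at Sox3 was weak, with a −log10 q of 4.81 and 3.10 against 16.4 to 23.6 at E17.5. With a minimum of 5 for that value, Sox3 was the 1 member with H3K27me3 at E17.5 only.

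**Figure D5:**
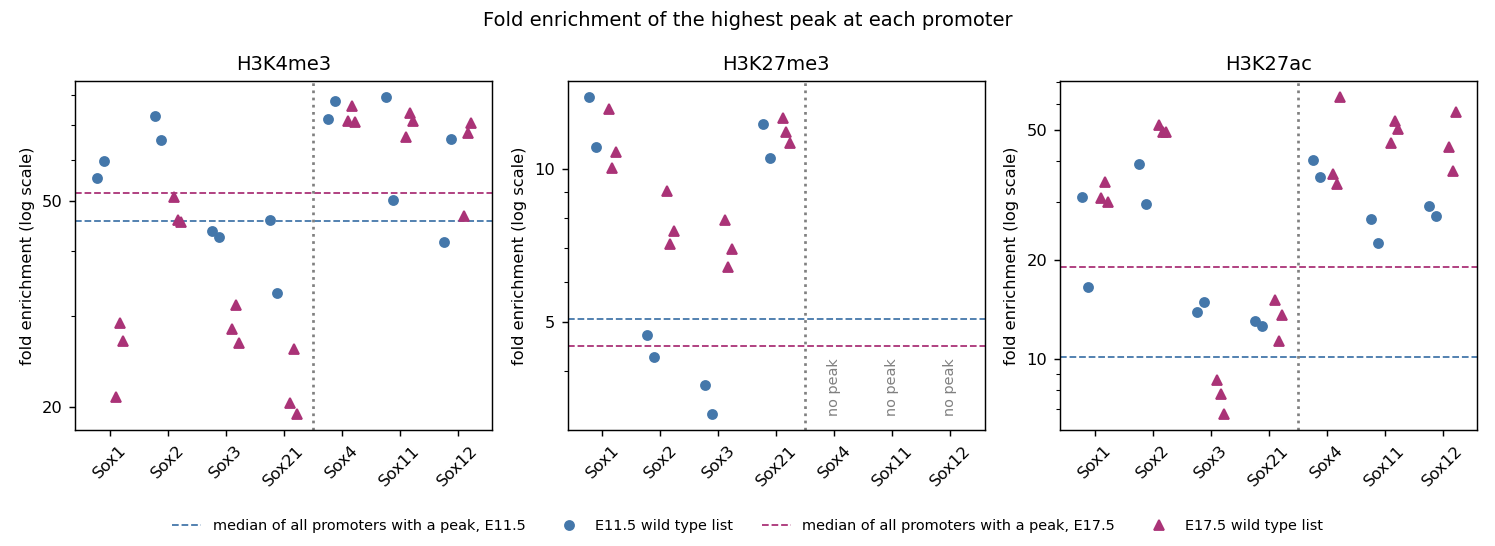
Fold enrichment (log axis) of the highest peak at each promoter for the 3 marks, with 1 point per wild type list and dashed lines for the median promoter, as the median of the lists of a stage. H3K4me3 at the SoxB genes is lower in each E17.5 list than in both E11.5 lists, and H3K27me3 at Sox2 and Sox3 is higher. The share of all promoters whose fold values did not overlap between the stages is not given.

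H3K27ac enrichment at Sox3 was 13.9- and 14.9-fold at E11.5 and 8.61-, 7.80- and 6.77-fold at E17.5, while the median promoter went from 10.1 in each list to between 18.7 and 21.4. At Sox11 it ran from 22.5 to 26.7, then from 45.6 to 53.2, and at Sox12 from 27.3 to 29.3, then from 37.3 to 56.7. Sox2 went from 39.3 and 29.7 to 51.6, 49.2 and 49.2, whereas Sox1, Sox21 and Sox4 overlapped between the stages. Sox3 alone among the members had lower H3K27ac in every wild type E17.5 list, again with no share of all promoters to compare.

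Peaks with a midpoint more than 1000 bp from any coding start were counted within 100 kb of each member. They were not joined, so pieces of a member's own broad promoter domain can be among those counted. Around Sox2, H3K27ac lists held 19 and 26 such peaks at the earlier stage and 15, 18 and 14 at the later one, against medians of 1 per gene at E11.5 and 3 to 4 at E17.5. Sox1 had 7 and 11, then 18, 17 and 17. Sox3 had 4 and 2, then 0, 1 and 2. The E17.5 lists are longer, so the stages were not tested. H3K27me3 was dense around Sox1, with 25 and 13 peaks, then 28, 23 and 22, against medians of 0 to 3. The SoxC genes had 0 such peaks in every wild type list (Sox11), 1 (Sox4) and 2 to 6 (Sox12). The peak nearest to the Sox11 start lay 1041860 to 1047584 bp away in the wild type lists, that nearest to Sox4 66561 to 67973 bp away, and that nearest to Sox12 21352 to 52475 bp away. CTCF, an architectural factor profiled at E17.5 only, had its nearest peak within 438 to 843 bp of the Sox11 start, 693 to 741 bp of the Sox12 start and 926 to 1148 bp of the Sox4 start in the wild type, and 3469 to 3522 bp, 2529 to 2686 bp, 1077 to 1129 bp and 5874 to 15945 bp from those of Sox1, Sox2, Sox3 and Sox21.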

How the data were processed

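RNA-seq (16 libraries) and ChIP-seq (36 peak lists) of 76 samples were analysed, and the 24 input samples were not used here. Groups were taken from the sample labels. The authors aligned RNA reads to mm39 with STAR 2.7.9a and deposited a raw count of reads per gene, in unstranded and stranded columns, of which the unstranded one was used. Lines naming no gene, 48.1% to 58.4% of reads, were left out. For ChIP-seq the authors used Bowtie2 2.4.2 and removed multi-mapping and duplicate reads, and called peaks for each replicate with MACS2 2.2.7.1 (versions from the submitters' processing notes). Humanized reads were aligned to a genome carrying the human sequence. The deposited lists give each peak's fold enrichment (a ratio), the −log10 of its p-value and q-value, and a score, of which fold and q were used. The broad peak settings for H3K27me3 are not given in the sources used here. Peak lists do not show read depth, so no counting interval is given for them, and intervals of width are those of the fit across lists.

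Counts were tested with edgeR 4.0.16 (R 4.3.3; filterByExpr, TMM, glmQLFit and glmQLFTest), and DESeq2 1.42.0 was an alternative. The filter kept all 7 members in every comparison. Log2 domain widths of protein-coding genes were tested with limma 3.58.1. Calls used a Benjamini-Hochberg adjusted p under 0.05. Starts and lengths came from GENCODE M39, newer than the authors' release, and 56236 of 56923 gene IDs matched. Both tests were tested on simulated data. Likeness used log2(CPM + 0.5). The p-values measure the spread between pools of embryos, 1 litter each.

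The members and gene lists were chosen with earlier results of these data known. The text names all members, the 2 highest and 2 lowest genes by wild type stage change in the lists of related factors, genes overlapping a member or starting within 10 kb of one, and the 2 genes most like each member. Sox14 is named in addition, as the SoxB2 gene outside the members, and its levels were added after they were seen. Marker lists of other cell types are given as counts, apart from Tcf7l2, named for the tissue check after its values were seen. Same-numbered libraries deviated together most between genotypes at E17.5 (r of 0.572, 0.635, 0.11 and 0.268), where adding the replicate as a block left 0 genes called. Between the stages r ran from -0.602 to 0.45 in the wild type and from -0.277 to 0.413 in the humanized libraries. The sample titles give replicate numbers and name no pairing. Alternatives covered normalisation, filters, strand, joint fits, GC offsets, peak thresholds, windows, joining and each replicate left out.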

Additional observations from a re-analysis of the deposited data

Results flagged for a closer look

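Of 32 sets of 4 libraries examined (7 genes and the SoxC to SoxB ratio, in 4 groups), 6 held a library whose gap to its nearest neighbour was too large a part of the whole range by Dixon's 95% limit for 4 values. Chance flags about 1 in 20 such sets. Of these, 4 were the E17.5 wild type replicate 1. It held 78.2 CPM of Sox1 against 45.4 to 46.7 in the others, 199 CPM of Sox2 against 136 to 144, 12.2 CPM of Sox3 against 4.30 to 5.38, and 316 CPM of Sox12 against 119 to 124. The transcripts of Sox1, Sox3 and Sox12 have a GC content of 56.9%, 66.4% and 59.9%, at percentiles 90.1, 99.9 and 97.0 of the genes tested, and Sox2 has 50.5% (percentile 59.7). Sox11, with 46.5% (percentile 36.7), was lowest in the same library. The part of GC content in these values was not tested. The E11.5 humanized replicate 4 held 1646 CPM of Sox11, against 1022 to 1117 in the other 3. The SoxC to SoxB ratio of the E17.5 humanized replicate 3 was 3.36, against 3.67 to 3.74.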

How the results depend on the processing

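The call of lower at E17.5 for Sox1, Sox2, Sox3 and Sox21 held in both genotypes under every RNA alternative run, as did the absence of called members between genotypes. Members called lower in the wild type ranged from 5 to 7 over left-out libraries, with 7 only without E17.5 wild type replicate 1. In the humanized libraries, 6 were called without a filter on low counts, and GC offsets in 20 bins, added after seeing the data, called 1 higher (Sox4). Between genotypes, DESeq2 called 2 genes at E11.5, as against 1 at the later stage, and a joint fit of all 16 libraries called 1 at E11.5. Adding the replicate block left 5 members lower in each genotype (9466 and 14454 genes called, against 10356 and 14601) and changed no other RNA call. Same-numbered lists did not deviate together, and the block left 2707 genes called for H3K4me3 width against 4538, 0 against 887 for H3K27me3 and 4109 against 6627 for H3K27ac.

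Some small RNA differences changed sign. Over left-out libraries, Sox12 between stages in the wild type ran from -0.648 to 0.000882 (without E17.5 replicate 2), and Sox4 in the humanized libraries from -0.037 (without E11.5 replicate 3) to 0.161. The genotype difference at E17.5 ran from -0.256 to 0.039 for Sox1, from -0.099 to 0.092 for Sox2 and from -0.554 to 0.062 for Sox12, and the Sox2 interaction from -0.191 to 0.026, in each case highest without E17.5 wild type replicate 1. With GC offsets, the genotype difference was -0.00935 for Sox2 and -0.0197 for Sox12 at E11.5, and 0.122, 0.091 and 0.018 for Sox1, Sox2 and Sox21 at E17.5 (0.123, 0.089 and 0.017 with the replicate block, and 0.0042 for Sox12), and the interaction was 0.057 for Sox1 and 0.0087 for Sox2.

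For H3K4me3 width, 2 members were narrower without joining of peaks, where Sox4 was 0.041 and Sox11 -0.0058. Joining across 3000 bp made 1 wider (Sox1, 0.839). Humanized lists gave 0.077 for Sox2 and -0.0074 for Sox11, and left-out lists gave -0.045 to 0.0058 for Sox4. For H3K27me3, 0 members were wider with a −log10 q of at least 5, a 2000 bp window, no joining, centring (488 genes called), the replicate block or humanized lists (581 genes), and centring gave -0.212, -0.152 and -0.035 for Sox1, Sox2 and Sox3. Left-out lists gave 171 to 869 genes and 0 to 2 members. With a −log10 q of at least 5, 1 member had H3K27me3 at E17.5 only. For H3K27ac, members wider numbered 4 with that q, 5 without joining, and 2 to 3 over left-out lists. Centring called 4119 genes, 1 member wider and 3 narrower, with -0.591, -0.49, -0.284 and -0.211 for Sox2, Sox21, Sox4 and Sox11. Humanized lists called 3363 genes, 1 member wider and 0 narrower, with -0.013 for Sox2 and -0.231 for Sox21. The causes were not tested. With 2 lists against 3, a change of width that was not called, large ones included, cannot be taken as absent.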
